A study of Mus musculus with 18 samples.

Results

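The genes described here are 10 regulators of mitochondrial and fatty acid metabolism: the coactivators Ppargc1a and Ppargc1b, the fatty acid receptors Ppara and Ppard with their partner Rxra, the estrogen-related receptors Esrra, Esrrb and Esrrg, and the factors Nrf1 and Tfam. They were chosen by name, as the core of the PGC-1, PPAR and ERR network, from the 55450 genes counted, and all 10 were among the 16270 genes with enough counts to be tested. RNA was sequenced from the left ventricle of male FVB/N mice, either wild type (WT) or with cardiac-specific overexpression of Gαq, the G protein subunit encoded by Gnaq. From 4 weeks of age both genotypes ate control chow (CD) or chow holding 0.5 mg of ertugliflozin (ERTU) per g, a drug that blocks the glucose transporter SGLT2, for 16 weeks. Tissue was taken at 20 weeks of age. There were 4 libraries of WT CD and 5 of WT ERTU, and in Gαq 5 on CD and 4 on ERTU, each described by the study as coming from a heart of its own. The WT mice were littermates on the same strain, the transgene is active in heart only, and the promoter that drives it is not given in the sources used here. A library is named here by its group and the number of its column, which runs across all groups and was not linked to the numbers of the sample labels.

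PGC-1 coactivators bind no DNA themselves. They dock on nuclear receptors and other factors and raise transcription of the genes those factors sit on, and in heart muscle, which lives mainly on fatty acids, that covers fatty acid oxidation and the respiratory chain. PPARs are receptors for fatty acids and bind DNA together with a retinoid X receptor, while ERRs have no established natural hormone and depend on PGC-1 for their activity. Nrf1 drives nuclear genes for respiration, and Tfam is carried into mitochondria, where it packages mitochondrial DNA and starts its transcription.

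The libraries held 15383566 to 20908363 counted read pairs, and the 10 genes had between 161 and 3014 counts each in any library. Levels are counts per 1000000 counted pairs (CPM) after scaling by TMM. Gnaq, the overexpressed gene, had a median of 109 CPM in WT CD, 72.1 in WT ERTU, 8045 in Gαq CD and 2711 in Gαq ERTU, and its lowest Gαq library (1641 CPM) lay above its highest WT library (230 CPM). Cardiomyocyte markers were abundant in every library, with a summed level of 75205 to 109469 CPM over 10 genes. Markers were compared between genotypes at an adjusted p under 0.05, where 9.83% of all genes tested were lower and 9.67% higher in Gαq. Of these 10 markers 4 were lower and 1 higher in Gαq. Group medians of the sum were 98327 CPM in WT CD, 100645 in WT ERTU, 81736 in Gαq CD and 84571 in Gαq ERTU. Among markers of other cells, 5 of 10 for fibroblasts, 2 of 10 for macrophages and 2 of the 6 tested for lymphocytes were higher in Gαq, and 2 of 10 for endothelium and 2 of 8 for smooth muscle and pericytes were lower. The summed fibroblast markers ranged from 3437 to 6764 CPM in WT libraries and from 5153 to 7834 CPM in Gαq libraries. Of the atrial markers 1 was higher and 1 lower of 8 tested, and their sum was 263 to 993 CPM in WT libraries and 10705 to 21380 CPM in Gαq libraries. With 1 marker called higher, that sum can rest on few genes, and the presence of atrial tissue was not tested. Skeletal muscle markers had 3 higher and 1 lower of 6 tested, while red blood cell (5), fat (8) and clock genes (13) had 0 called. The defining markers Bmp10, Myh4 and Myod1 averaged under 0.1 CPM. In tissue RNA, fewer cells of a type and less RNA per cell cannot be told apart, and the part of these marker shifts in the values below was not tested.

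Promoter sequence is shown first for the 3 regulators with a letter match to a motif of this network in a promoter window. RefSeq promoters (build GRCm38.p6, 250 bases before to 50 after a start site) were matched for 9 of the 10 genes, Ppargc1b not among them, as 15 windows of 300 bases. They were searched on both strands for the NRF1 site (GCGCA, any base, then GCGC), the ERR element TCAAGGTCA, the nuclear receptor core AGGTCA, which the ERR element contains, and the GABPA site CCGGAAGT. Each line below gives 30 bases on the strand of the gene, with the match in capitals.
Ppara, NRF1 site: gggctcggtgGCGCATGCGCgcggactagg
Tfam, GABPA site: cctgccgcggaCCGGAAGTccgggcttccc
Rxra, receptor core, opposite strand: tagaaatgggtgTGACCTgagtaatggtca
Rxra, receptor core, same strand: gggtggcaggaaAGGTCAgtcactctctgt
The Ppara window is chr15:85735735-85735764 (plus strand) and its match, which reads alike on both strands, begins 31 bases before the start site. The Tfam window is chr10:71238073-71238102 (minus strand), with the match beginning 47 bases before the start. Those of Rxra are chr2:27709193-27709222 and chr2:27709232-27709261 (plus strand), with matches beginning 87 and 48 bases before the start. That start, chr2:27709292, lies inside the gene, which begins at chr2:27676440, so it is an internal start site. Of all 32851 mouse promoter windows, 4.603% held the NRF1 site, 3.887% the GABPA site, 16.26% the receptor core and 0.4231% the ERR element, so each match is a description of letters and not a bound site. Of the 15 windows of the regulators, 1 (6.667%) held the NRF1 site, 1 the GABPA site and 1 the receptor core. No ERR element was among their letters.

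Compared per kilobase of exon over all 18 libraries, Esrra stood highest of the 10 regulators with 33.2 ± 3.93 CPM per kb (SD), above Rxra in every library. Rxra (18.5 ± 2.65) and Ppargc1a (17.8 ± 4.18) could not be ordered, since their ranges overlapped and Rxra was the higher in 11 of 18 libraries. Tfam followed with 10.95 ± 1.53 CPM per kb, then Esrrg with 9.06 ± 1.74 and Ppara with 7.90 ± 2.13, and each of these 3 overlapped its neighbour in range. Esrrb (4.58 ± 0.913), Ppard (4.42 ± 0.836) and Ppargc1b (4.31 ± 1.27) did not differ beyond their spread. Nrf1 was lowest at 1.58 ± 0.124 CPM per kb, and none of its libraries reached the lowest library of Ppargc1b. Within families and per kilobase, Ppargc1a thus read higher than Ppargc1b, Ppara higher than Ppard, and the ERR genes in the order Esrra, Esrrg, Esrrb. The length used was that of all annotated exons of a gene, 10282 bases for Nrf1 and 3990 for Ppargc1b. Which transcripts the heart makes was not tested. In CPM without that division, Nrf1 (12.5 to 18.04) lay inside the range of Ppargc1b (8.86 to 27.1).

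**Figure D1:**
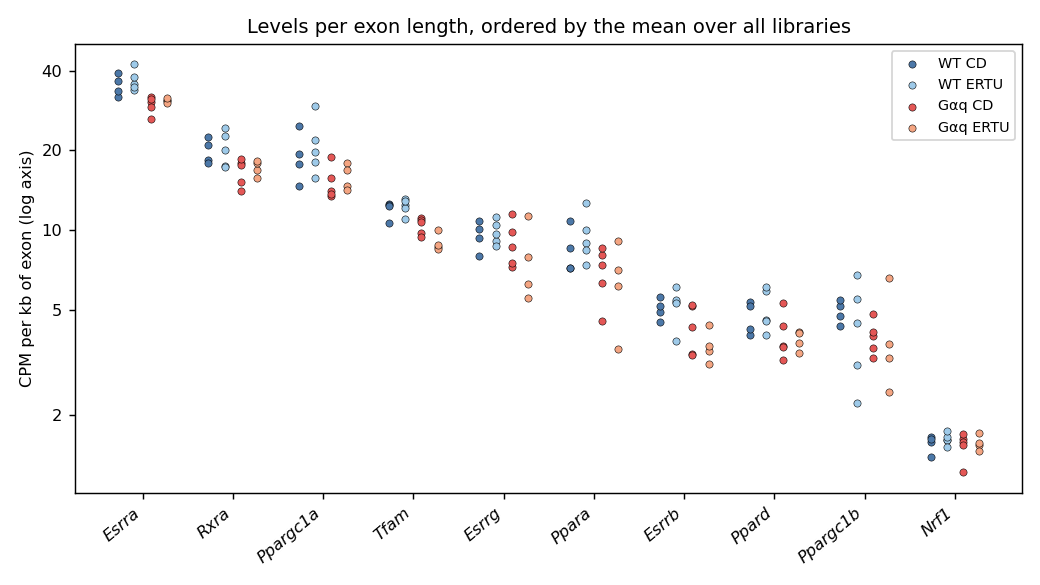
Level of each regulator in CPM per kilobase of exon (log axis), 1 point per library, coloured by group, genes ordered by their mean over the 18 libraries. Esrra (mean 33.2) lies apart at the top, Nrf1 (mean 1.58) apart at the bottom, and Rxra and Ppargc1a overlap, as do Esrrb, Ppard and Ppargc1b.

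The comparison of genotypes asks how far this network moved with Gαq overexpression. With both diets in 1 model, 6 of the 10 regulators were lower in Gαq than in WT at an adjusted p under 0.05 (Ppargc1a, Ppard, Rxra, Esrra, Esrrb and Tfam), against 9.83% of all 16270 genes, and 0 were higher (9.67% of all genes). The log2 fold changes (Gαq minus WT) of all 10 lay below 0, as did those of 49.4% of all genes, and their median was -0.28 where the median of all genes was 0.00. Changes were small: the largest, of Ppara, was -0.41 and did not pass, and the smallest, of Nrf1, was -0.04. On CD alone, 0 of 10 passed (4.02% of all genes were called lower), and 3 of 10 were lower at an unadjusted p under 0.05 (10.4% of all genes). DESeq2 also called 0 of 10 on CD, where it called 1670 of the 30758 genes to which it gave a p-value. On ERTU alone, 2 of 10 passed, Esrrb and Tfam (4.15% of all genes were called lower), and 7 of 10 were lower at an unadjusted p under 0.05 (11% of all genes). Adjusted p-values are from edgeR's quasi-likelihood test with Benjamini-Hochberg adjustment over all genes unless another tool or family is named, and they measure the spread between these mice. The number called by genotype varied between fits. Without WT CD library 1, 3 passed (Esrra, Esrrb and Tfam), where 2781 of 16543 genes were called in either direction. On the deposited variance-stabilized values 2 passed (Esrra and Tfam), where 2199 of 55450 genes were called. Those values differ in scale and were tested without a filter, and the part of each was not tested.

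**Figure D2:**
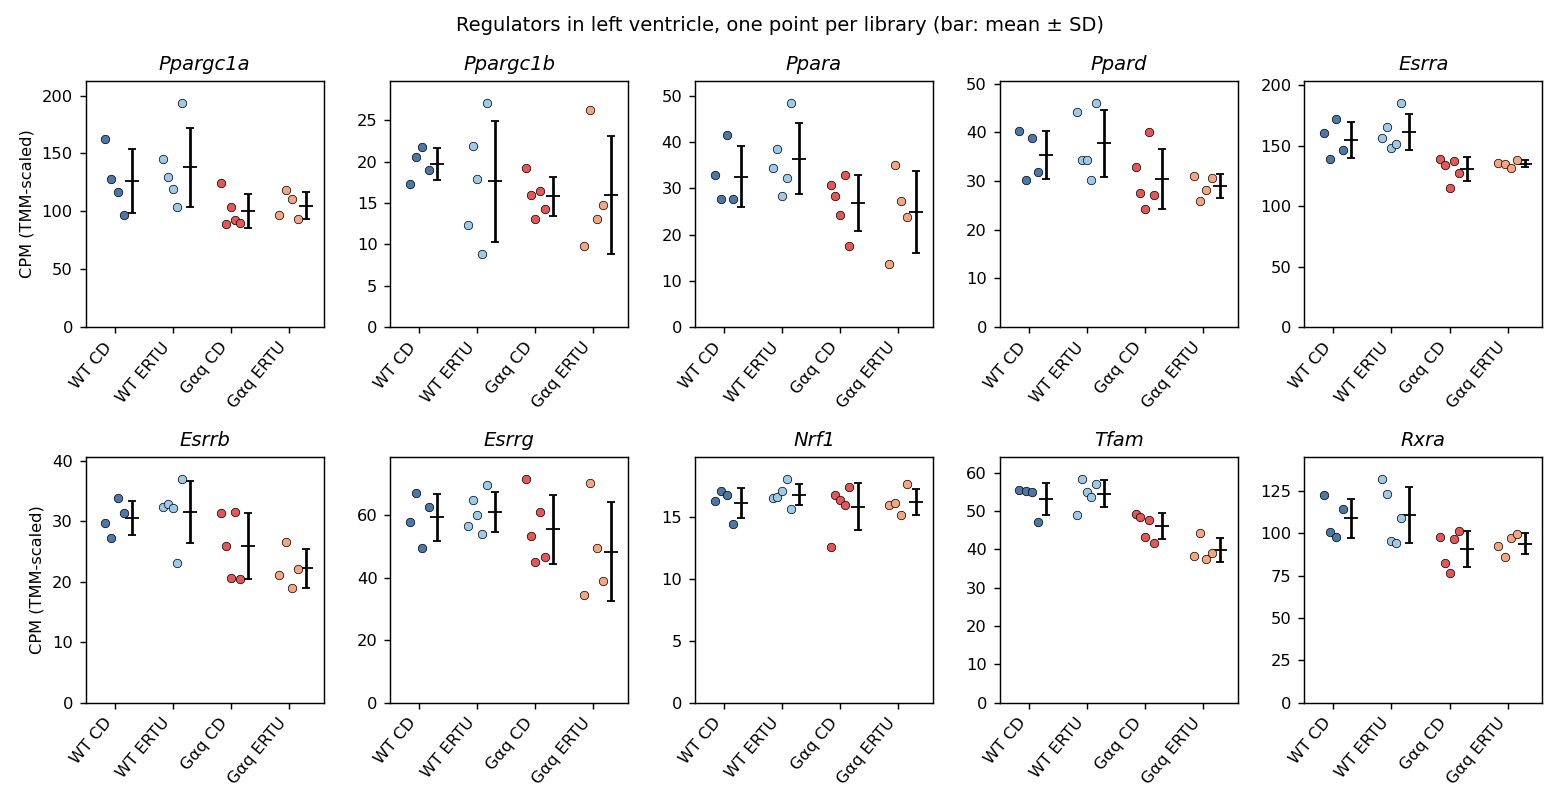
CPM of each regulator, 1 point per library, in the 4 groups, with the mean ± SD of each group as a bar beside the points and every axis starting at 0. Esrra and Tfam show the clearest step down from WT to Gαq, Nrf1 is level at 12.5 to 18.04 CPM, and Ppargc1b spreads widely in both ERTU groups.

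Ppargc1a encodes PGC-1α (chr5:51454250-51567726, minus strand), the coactivator that responds to cold, exercise and fasting. On CD, its level was 163, 128, 117 and 96.5 CPM in WT and 124, 88.9, 104, 92.6 and 90.0 CPM in Gαq. On ERTU, it was 145, 129, 119, 104 and 193 CPM in WT and 96.9, 118, 111 and 93.0 CPM in Gαq. The highest WT libraries, WT ERTU 15 and WT CD 1, stood well above all Gαq libraries, while the lowest WT libraries lay among them, so the groups overlapped on both diets. Ppargc1a fell in Gαq by 22.5% over both diets (log2 fold change -0.37 ± 0.11 (SE), adjusted p = 0.0249). The call was lost without WT CD library 1 (adjusted p = 0.0687) or without Gαq ERTU library 20 (adjusted p = 0.0546). By diet, the values were -0.34 on CD and -0.40 on ERTU, neither past the threshold.

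Ppargc1b encodes PGC-1β, the relative that supports basal mitochondrial content. It read 17.4, 20.6, 21.8 and 19.0 CPM in WT CD and 19.2, 16.0, 13.1, 16.5 and 14.3 CPM in Gαq CD. With ERTU, WT libraries read 12.4, 21.9, 17.9, 8.86 and 27.1 CPM and Gαq libraries 9.81, 26.3, 13.1 and 14.8 CPM. Within each genotype the ERTU group spread more widely than the CD group: the coefficient of variation was 41.3% in WT ERTU and 44.8% in Gαq ERTU, against 9.80% in WT CD and 14.7% in Gαq CD. The genotype difference of -0.23 ± 0.19 (SE) did not pass (adjusted p = 0.459), and its 95% interval of -0.63 to 0.18 covers both no change and a fall larger than that of Ppargc1a. The difference between the spreads was not tested.

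Ppara (chr15:85734983-85802819, plus strand) encodes the receptor that switches on fatty acid oxidation genes when fatty acids are plentiful. Its CPM were 33.0, 27.6, 41.6 and 27.7 in WT CD and 30.8, 28.4, 24.2, 32.8 and 17.5 in Gαq CD. In WT ERTU they were 34.4, 38.6, 28.4, 32.3 and 48.4, and in Gαq ERTU 13.7, 35.0, 27.2 and 23.7. The lowest libraries were Gαq ERTU 16 and Gαq CD 10 and the highest was WT ERTU 15, but the remaining values of the genotypes overlapped. Ppara had the lowest log2 fold change of the 10 genes by genotype, -0.41 ± 0.16 (SE), and missed the threshold (adjusted p = 0.0804). It passed without Gαq ERTU library 17 (adjusted p = 0.0427) and in voom with quality weights (adjusted p = 0.0304). The values were -0.28 on CD and -0.54 on ERTU.

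Ppard (chr17:28232700-28301474, plus strand) encodes PPARδ, the receptor found in most tissues, which shares many muscle targets with PPARα. Its levels were 40.2, 30.2, 38.8 and 31.9 CPM in WT CD and 32.8, 27.5, 24.2, 39.99 and 27.2 CPM in Gαq CD. Under ERTU they were 44.2, 34.4, 34.2, 30.1 and 45.9 CPM in WT and 31.0, 25.8, 28.2 and 30.7 CPM in Gαq. Gαq CD 9 read as high as the upper WT libraries, so the CD groups overlapped, and on ERTU the lowest WT library fell among the Gαq libraries. Over both diets Ppard fell by 18.8% in Gαq (-0.30 ± 0.10 on the log2 scale (SE), adjusted p = 0.0409). This was the call nearest to the threshold. It was lost without any 1 of 11 libraries, with adjusted p from 0.0512 to 0.0851: WT CD 1 and 4, WT ERTU 11 and 15, Gαq CD 7, 8 and 10, and all 4 Gαq ERTU libraries.

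Rxra (chr2:27676440-27762957, plus strand) encodes the retinoid X receptor that PPARs need to bind DNA. It was at 123, 101, 97.9 and 115 CPM in WT CD and at 97.9, 82.7, 76.5, 96.5 and 101 CPM in Gαq CD. With the drug, it was at 132, 124, 95.7, 94.2 and 109 CPM in WT and at 92.4, 86.3, 97.4 and 99.9 CPM in Gαq. The 5 highest libraries were all WT, and the lower WT libraries overlapped with Gαq on both diets. Rxra fell by 15.9% (-0.25 ± 0.08 on the log2 scale (SE), adjusted p = 0.0264), and its values were alike on CD (-0.26) and on ERTU (-0.24). Without WT CD 1, WT ERTU 11, WT ERTU 12 or Gαq ERTU 17 the adjusted p lay between 0.0510 and 0.0657.

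Esrra (chr19:6910977-6921813, minus strand) encodes ERRα, the receptor that acts with PGC-1α on genes of the citric acid cycle and respiratory chain. Its exons share 73 bases with Trmt112 on the opposite strand and 91 bases with Mir6990 on the same strand. Esrra read 161, 139, 172 and 147 CPM in WT CD and 139, 134, 115, 138 and 128 CPM in Gαq CD. On ERTU, WT libraries read 157, 165, 148, 151 and 185 CPM and Gαq libraries 136, 135, 132 and 139 CPM. Every Gαq library lay below every WT library of its own diet, although Gαq CD 6 and WT CD 2 nearly touched, and Esrra was the only regulator of which this held on CD, where 4.6% of all genes had such groups. Esrra fell by 15.9% in Gαq, with -0.25 ± 0.06 (SE) on the log2 scale (adjusted p = 0.00543). The exact permutation test within diets, two-sided, gave p = 6.3e-05, the smallest its 15876 regroupings allow. On CD the change was -0.24 (adjusted p = 0.103) and on ERTU -0.25 (adjusted p = 0.0873). On CD the exact permutation test of the single gene gave p = 0.00794, the smallest that 126 regroupings of 4 and 5 libraries allow. DESeq2 and voom with quality weights called Esrra on ERTU as well (adjusted p = 0.0363 and 0.0208).

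Esrrb (chr12:86361117-86521628, plus strand) encodes ERRβ, known best from stem cells and the inner ear. Its levels on CD were 29.8, 27.2, 33.9 and 31.4 CPM in WT and 31.3, 26.0, 20.5, 31.5 and 20.4 CPM in Gαq. Its levels on ERTU were 32.4, 32.8, 32.2, 23.0 and 37.0 CPM in WT and 21.1, 26.5, 19.0 and 22.2 CPM in Gαq. On CD the Gαq libraries split, with Gαq CD 6 and 9 at WT levels and Gαq CD 7, 8 and 10 below all WT libraries, and on ERTU only WT ERTU 14 lay within the Gαq range. Esrrb fell by 22.7% over both diets (-0.37 ± 0.11 (SE), adjusted p = 0.0160) and by 29.5% on ERTU (-0.50 ± 0.15 (SE), adjusted p = 0.0393). The value on CD was -0.24. The call on ERTU was lost without any 1 of WT ERTU 11, 12, 13 and 15 and Gαq ERTU 16, 18 and 20, with adjusted p from 0.0708 to 0.139.

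Esrrg (chr1:187608791-188214885, plus strand) encodes ERRγ, the form of muscle fibres with high oxidative capacity and of the newborn heart. It read 57.8, 67.0, 49.4 and 62.7 CPM in WT CD and 71.5, 53.4, 45.0, 60.9 and 46.5 CPM in Gαq CD. The ERTU groups read 56.4, 64.9, 59.9, 53.9 and 69.6 CPM in WT and 34.5, 70.2, 49.4 and 38.9 CPM in Gαq. In Gαq ERTU, 3 libraries lay below all WT ERTU libraries and library 17 lay above them. The change by genotype was -0.22 ± 0.12 (SE) and did not pass (adjusted p = 0.240). On ERTU it was -0.34 (adjusted p = 0.274), and without Gαq ERTU 17 it was -0.57 (adjusted p = 0.0247).

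Nrf1 (chr6:30047988-30153458, plus strand) encodes nuclear respiratory factor 1. Its levels were 16.3, 17.1, 16.7 and 14.4 CPM in WT CD and 12.5, 16.7, 16.3, 15.9 and 17.4 CPM in Gαq CD. They were 16.6, 16.6, 17.1, 18.04 and 15.7 CPM in WT ERTU and 16.0, 16.1, 15.1 and 17.6 CPM in Gαq ERTU. Apart from Gαq CD 6, the lowest library, the groups covered overlapping ranges. The change by genotype was -0.04 ± 0.07 (SE, adjusted p = 0.746), with a 95% interval of -0.18 to 0.10 on the log2 scale. That interval does not reach the change measured for any other regulator, called or not, of which the smallest was -0.22 (Esrrg). It overlaps the 95% interval of every other regulator except Tfam (-0.47 to -0.20), and the differences between genes were not tested.

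Tfam (chr10:71225464-71238280, minus strand) encodes the factor that coats and transcribes mitochondrial DNA. It had 55.5, 55.2, 54.9 and 47.1 CPM in WT CD and 49.2, 48.4, 43.3, 47.6 and 41.7 CPM in Gαq CD. It had 49.0, 58.4, 55.0, 53.6 and 57.0 CPM in WT ERTU and 38.3, 44.4, 37.6 and 39.0 CPM in Gαq ERTU. On ERTU all Gαq libraries lay below all WT libraries, as they did for 5.49% of all genes, and on CD only WT CD 5 lay within the Gαq range. In WT, mean Tfam was 53.2 ± 4.06 CPM (SD, n = 4) without and 54.6 ± 3.62 CPM (SD, n = 5) with the drug, and in Gαq it was 46.0 ± 3.33 CPM (SD, n = 5) and 39.8 ± 3.12 CPM (SD, n = 4). Tfam fell by 20.5% in Gαq over both diets, the smallest adjusted p of the 10 genes (-0.33 ± 0.06 (SE), adjusted p = 0.000771; exact permutation test within diets, p = 0.000252). On ERTU it fell by 27.1% (-0.46 ± 0.09 (SE), adjusted p = 0.00178), and the exact permutation test gave p = 0.00794, the smallest that 126 regroupings allow. On CD the change was -0.21 ± 0.09 (SE, adjusted p = 0.154). The genotype call and the call on ERTU were made in all 18 fits that left out 1 library and in all 7 other fits. Counts were made for nuclear-encoded genes, so transcripts of mitochondrial DNA itself were not analysed here.

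**Figure D3:**
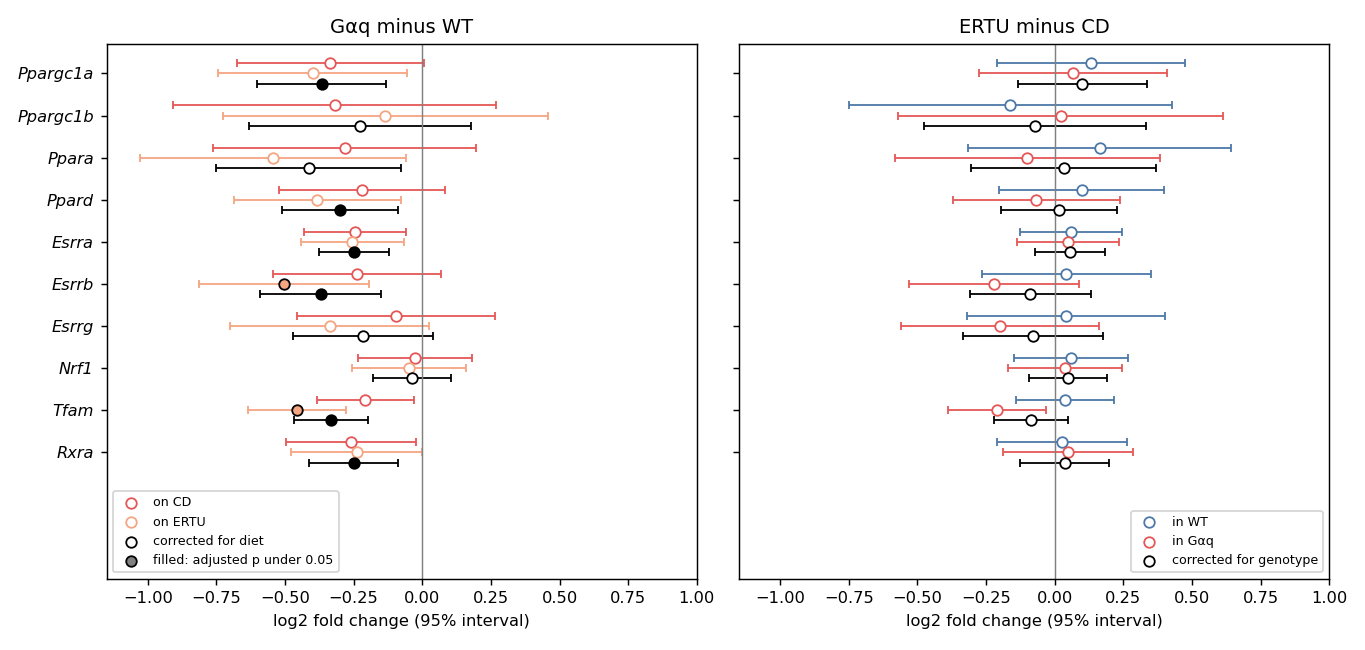
Log2 fold changes of the 10 regulators with 95% intervals, left for Gαq minus WT on each diet and over both, right for ERTU minus CD in each genotype and over both. Filled points passed an adjusted p of 0.05: 6 over both diets and 2 on ERTU (Esrrb and Tfam) on the left, and none on the right.

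The comparison of diets asks whether ertugliflozin moved these genes. By edgeR 0 of the 10 regulators passed by diet over both genotypes, where 0% of the 16270 genes were called, and 0 of 10 had an unadjusted p under 0.05 (7.34% of all genes). DESeq2 called 0 of the 10 as well, and 2 of the 30749 genes to which it gave a p-value. The log2 fold changes (ERTU minus CD) ran from -0.09 for Esrrb to 0.10 for Ppargc1a, with a median of 0.02. The 95% intervals were -0.07 to 0.18 for Esrra, -0.22 to 0.05 for Tfam, -0.14 to 0.33 for Ppargc1a and -0.30 to 0.37 for Ppara. For each of these genes a rise as large as its own fall in Gαq over both diets lay outside the interval. This held only narrowly for Ppargc1a and Ppara, whose changes by genotype were -0.37 and -0.41. A rise of Ppargc1a or Ppara as large as the fall of Esrra (-0.25) could not be told from none.

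Within genotypes, 0 of 10 passed for ERTU in WT (0% of all genes called, 0 of 10 and 2.15% of all genes at an unadjusted p under 0.05) and 0 of 10 for ERTU in Gαq (0% called, 1 of 10 and 7.34% of all genes at an unadjusted p under 0.05). The 1 gene was Tfam. Its mean in Gαq, given above, was lower on ERTU than on CD, with only Gαq ERTU 17 inside the range of the CD libraries. The log2 fold change was -0.21 ± 0.09 (SE), which did not pass over all genes (unadjusted p = 0.0236 in edgeR, adjusted p = 0.673; exact permutation test, p = 0.0397). In WT the change of Tfam with ERTU was 0.04 ± 0.09 (SE). The difference of these changes, the interaction of genotype and diet, was -0.25 ± 0.12 (SE) with an unadjusted p of 0.0535 and an adjusted p of 1.000 in edgeR. For the interaction 0 of 10 regulators passed (0% of all genes) and 0 of 10 had an unadjusted p under 0.05 (1.89% of all genes).

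Side by side, the changes with ERTU in WT and in Gαq were 0.13 and 0.07 for Ppargc1a, and 0.06 and 0.05 for Esrra. They were 0.16 and -0.10 for Ppara, and 0.04 and -0.22 for Esrrb. No value of these 4 genes passed, and Esrra varied little in Gαq ERTU, with a coefficient of variation of 2.04%. In Gαq, mean Esrra was 131 ± 9.69 CPM (SD, n = 5) without the drug and 135 ± 2.76 CPM (SD, n = 4) with it, and mean Ppargc1a was 99.98 ± 14.9 CPM (SD, n = 5) and 105 ± 11.9 CPM (SD, n = 4). Both differences were smaller than the SD of the Gαq CD group, and both ERTU means remained below the means of untreated WT mice, 155 ± 14.8 CPM (SD, n = 4) and 126 ± 27.8 CPM (SD, n = 4).

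Individual libraries tended to be high or low in several of these genes together. WT ERTU 15 was the highest of its group in 7 of the 10 regulators, Gαq ERTU 17 in 6 and Gαq CD 6 in 5, while WT ERTU 14 was the lowest of its group in 6 and Gαq CD 8 in 5. The median deviation of WT ERTU 15 from its group mean was 0.22 on the log2 scale, and that of Gαq CD 8 was -0.21. The summed cardiomyocyte markers of WT ERTU 14 were the lowest of its group (76574 CPM) and its fibroblast markers the highest (6294 CPM), and in Gαq ERTU 17 the cardiomyocyte sum was the highest of its group (100225 CPM) and the fibroblast sum the lowest (5841 CPM). WT ERTU 15, with 100645 CPM of cardiomyocyte markers, was the middle library of its group. The part of tissue makeup in these deviations was not tested.

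**Figure D4:**
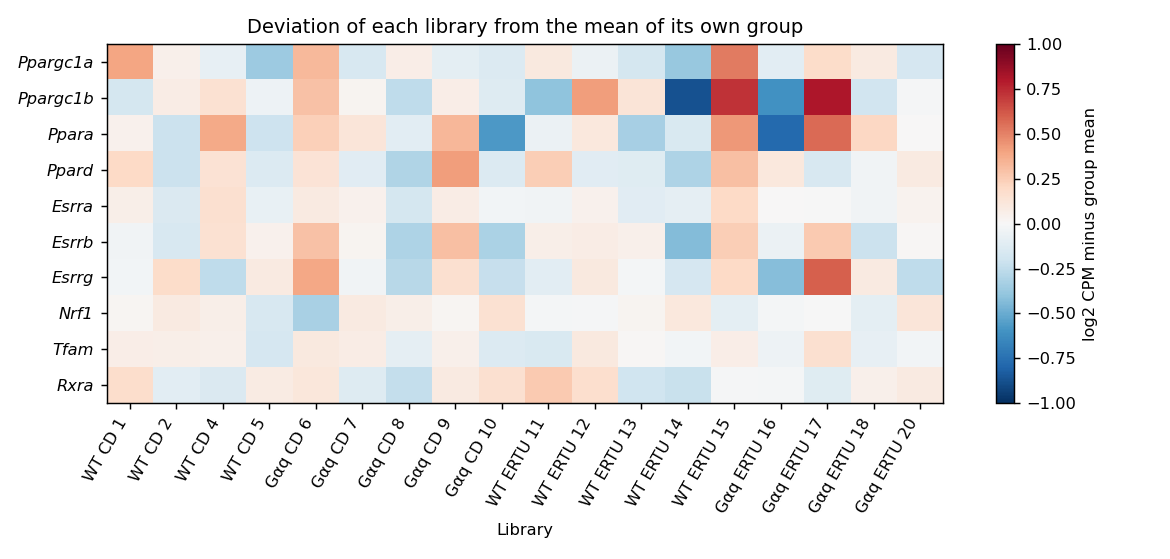
Deviation of each library from the mean of its own group, in log2 CPM, for the 10 regulators (rows) and 18 libraries (columns). Red columns such as WT ERTU 15 and Gαq ERTU 17 and blue columns such as WT ERTU 14 and Gαq CD 8 show libraries that were high or low in many of these genes together, while the Nrf1 row departs from the others.

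After each library's group mean was taken off, 45 pairs of regulators were correlated over the 18 libraries, with p-values from permutations within groups. In 34 of the 45 pairs Pearson's r was above 0, and after adjustment over the 45 pairs 2 passed by r, both with Ppargc1b, and 7 by Spearman's rho. For Ppargc1b and Esrrg r was 0.72 (permutation p = 0.00038, adjusted 0.0121) and Spearman's rho 0.70 (permutation p = 0.00301, adjusted 0.0339). For Ppargc1b and Esrrb r was 0.72 (permutation p = 0.00054, adjusted 0.0121) and rho 0.74 (permutation p = 0.0005, adjusted 0.0225). Without the libraries farthest from the median of Ppargc1b, WT ERTU 14 and Gαq ERTU 17, r was 0.64 and 0.56. Ppard and Esrra passed by rho (0.76, permutation p = 0.00458, adjusted 0.0361) and not by r (0.74, permutation p = 0.0043, adjusted 0.0537). The other pairs that passed by rho alone were Ppargc1b with Tfam (0.72, adjusted permutation p = 0.0339), Ppara with Esrra (0.68, adjusted permutation p = 0.0339), Ppara with Esrrb (0.68, adjusted permutation p = 0.0361) and Esrra with Esrrb (0.64, adjusted permutation p = 0.0451). All values of a library share its scaling and tissue makeup, and no group alone holds 6 libraries, so r was not given within groups.

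The other genes of the pathway were taken by name in 4 lists: 30 partners and coregulators, 18 genes of mitochondrial DNA transcription and maintenance, 30 PPARα targets (29 tested) and 30 ERR targets. In Gαq against WT over both diets, 5 of 30 partners fell and 1 rose, with a list median of -0.15, where 9.83% of all genes fell and 9.67% rose. Rxrg, the retinoid X receptor enriched in muscle, fell by 0.46 on the log2 scale (SE 0.10, adjusted p = 0.00149). Sirt3, the mitochondrial deacetylase, fell by 0.30 (SE 0.06, adjusted p = 0.00163) and Ncoa1, a steroid receptor coactivator, by 0.29 (SE 0.07, adjusted p = 0.00716). The other members that passed were Prkaa2 (a catalytic subunit of AMP kinase) at -0.50 and Hdac3 (a histone deacetylase of corepressor complexes) at -0.25, and the 1 that rose was Nr0b2, the receptor SHP that lacks a DNA-binding domain, at 0.48. These 3 genes were chosen after their values were seen.

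Of the genes that act on mitochondrial DNA beside Tfam, 10 of 18 fell in Gαq and 0 rose (list median -0.24), against 9.83% and 9.67% of all genes. Top1mt, the mitochondrial topoisomerase, fell by 0.69 on the log2 scale (SE 0.11, adjusted p = 8.23e-05). Lrpprc, which stabilises mitochondrial messenger RNA, and Twnk, the replicative helicase, each fell by 0.48 (SE 0.09 and 0.08, adjusted p = 0.000556 and 0.000233). Mean Twnk was 48.5 ± 4.79 CPM in WT CD, 50.1 ± 8.99 in WT ERTU, 33.3 ± 3.42 in Gαq CD and 37.6 ± 3.16 in Gαq ERTU (SD, n = 4, 5, 5 and 4). Of the 17 RefSeq promoter windows matched to this list, 4 (23.53%) held the GABPA letters shown for Tfam above, against 3.887% of all windows. The NRF1 site and the receptor core were each in 1 window of this list (5.882%), against 4.603% and 16.26% of all windows, and the ERR element was in 0. The GABPA shares of the other lists were 2.941% of windows for partners, 7.143% for PPARα targets and 8% for ERR targets. In the same order, 23.53%, 28.57% and 24% of windows held the receptor core and 5.882%, 3.571% and 4% the NRF1 site. The ERR element was in 0 windows of these lists, and none of these shares was tested.

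Targets of the receptors fell widely. Over both diets, where 9.83% of all genes fell and 9.67% rose, 18 of 29 PPARα targets fell and 0 rose, with a median of -0.59. Of the ERR targets 23 of 30 fell and 0 rose, with a median of -0.36. Cpt2, which re-forms acyl-CoA inside mitochondria, fell by 0.98 on the log2 scale (SE 0.11, adjusted p = 7.65e-07), from 253 ± 46.8 CPM in WT CD to 126 ± 24.8 in Gαq CD (SD, n = 4 and 5). Decr1, needed to oxidise unsaturated fatty acids, fell by 0.88 (SE 0.09, adjusted p = 6.51e-07) and Acadvl, the dehydrogenase of very long chains, by 0.87 (SE 0.09, adjusted p = 2.33e-07). Among ERR targets, Maob, a monoamine oxidase, fell by 1.58 (SE 0.14, adjusted p = 1.37e-07), Uqcrfs1, the iron-sulfur subunit of complex III, by 0.61 (SE 0.07, adjusted p = 1.95e-06) and Acadm, the medium-chain dehydrogenase, by 0.58 (SE 0.07, adjusted p = 5.97e-06). Acadm and Fabp3 stand in both target lists. On CD alone, where 4.02% of all genes were lower and 3.9% higher, 13 of 29 PPARα targets, 16 of 30 ERR targets, 4 of 18 genes of mitochondrial DNA and 3 of 30 partners were lower and 1 partner was higher. On ERTU alone, where 4.15% of all genes were lower, the counts of these lists were 10, 14, 7 and 0.

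By diet, 0 genes of the 4 lists passed in edgeR. An unadjusted p under 0.05 was found in 8 of 29 PPARα targets, 1 of 30 partners and 0 of the others, against 7.34% of all genes. Their directions differed by list: 29 of 29 PPARα targets had a log2 fold change above 0 (median 0.22), as did 27 of 30 ERR targets (median 0.08), 11 of 18 genes of mitochondrial DNA (median 0.03) and 13 of 30 partners (median -0.03), while 50.5% of all genes lay below 0. The smallest unadjusted p-values of the PPARα targets were those of Ehhadh, a peroxisomal enzyme, at 0.48 (SE 0.17, edgeR adjusted p = 0.668), Cd36, the fatty acid transporter, at 0.30 (SE 0.13) and Decr1 at 0.21 (SE 0.09). Among ERR targets Fabp3, the heart fatty acid-binding protein, stood at 0.21 (SE 0.11), Cox4i1, of cytochrome oxidase, at 0.16 (SE 0.08) and Phb2, a prohibitin, at 0.14 (SE 0.08). Pparg, the PPAR of fat cells, stood at 0.29 (SE 0.13), Nrip1 at -0.16 and Prkaa1 at -0.12, and in the mitochondrial DNA list Mterf1a stood at -0.33, Mterf2 at 0.15 and Polrmt at 0.14. Pdk4, one of the PPARα targets, was far lower in WT CD 4 (166 CPM) and in Gαq CD 7, 8 and 9 (150, 261 and 105 CPM) than in any ERTU library (at least 1308 CPM), and the part of these CD libraries in the shift by diet was not tested. Genes of a list share their libraries and are not replicates, so these counts of direction carry no test.

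**Figure D5:**
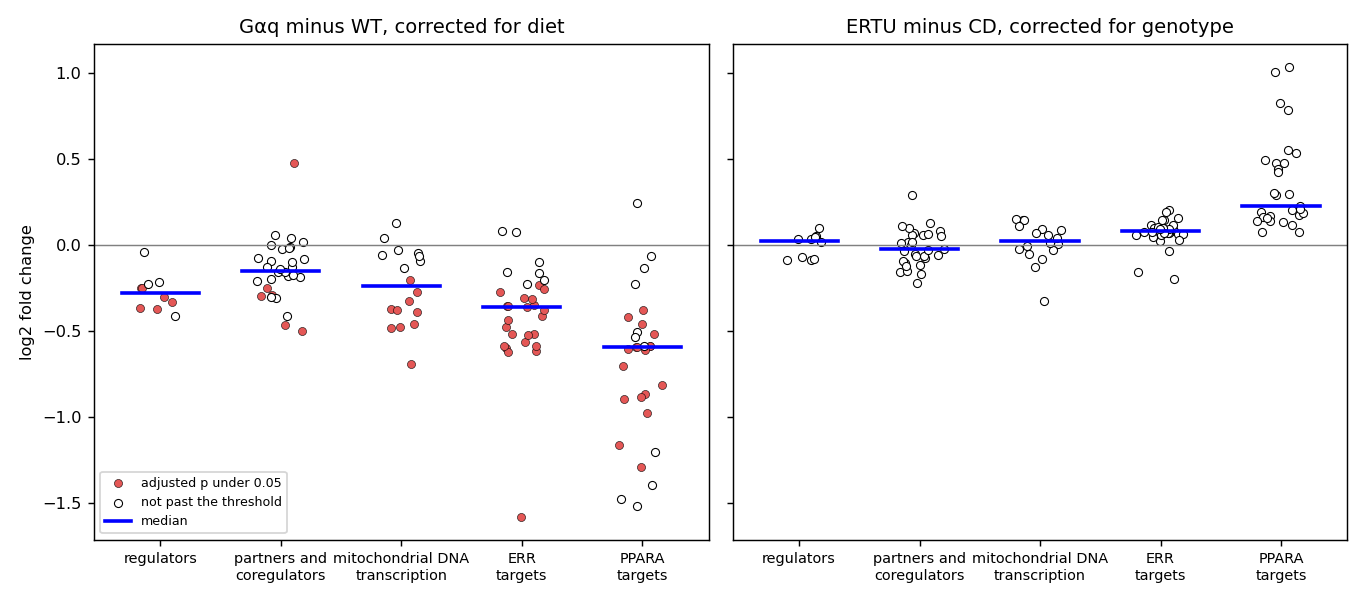
Log2 fold change of every tested gene in the 10 regulators and the 4 lists, left for Gαq minus WT and right for ERTU minus CD, with the median of each list as a blue line. On the left red points (adjusted p under 0.05) lie almost all below 0, with medians from -0.15 to -0.59, and on the right no gene passed, while all 29 PPARα targets lie above 0.

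As a description of pattern, the genes whose log2 CPM followed each regulator most closely over the 18 libraries were sought among 13097 genes. Tfam ran most like Phtf2 (Pearson r = 0.93) and Dolk (0.92), Esrra like Kcnk3 (0.93) and Egln1 (0.92), and Esrrb like Dennd4b (0.93) and Kcnq1 (0.92). Ppargc1a ran most like Coq5, an enzyme of ubiquinone synthesis (0.88), and Twnk (0.86), and Ppargc1b like the muscle factor Mef2a (0.87) and Pm20d2 (0.86). Ppara ran like Pptc7 (0.92) and Tomm70a, a receptor of the mitochondrial import machinery (0.91), Ppard like Kcnq1 and Rab3ip (both 0.89), Esrrg like Limch1 (0.93) and Gabpa (0.92), and Rxra like Klhl21 (0.93) and Mark4 (0.92). Nrf1 had no close follower, its best being Gm6475 (0.73) and Gm10180 (0.69), and its nearest regulator, Tfam, reached 0.09. Nrf1 was also the lowest of the 10 per kilobase of exon, with 204 to 384 counts in each library. The part of counting noise in its low r was not tested. The nearest pair among the 10 was Ppard and Esrra, with r = 0.82. These values include the difference between genotypes, library scaling and tissue makeup, which all 18 libraries share, and carry no test.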

How the data were processed

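RNA of frozen left ventricle was sequenced from poly(A)-selected libraries. The authors aligned reads to mm10 with STAR (2.6.0c per the labels) and deposited raw counts of uniquely aligned read pairs per Ensembl gene, nuclear-encoded genes only, made with featureCounts (Subread 1.6.2) on the same strand. The authors also deposited variance-stabilized values on a log2-like scale, made with DESeq2, which were used only as an alternative. Gene IDs were matched to GENCODE M21 on GRCm38 for 55104 of 55450 IDs (99.4%).

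The counts were fitted with edgeR 4.0.16 in R 4.3.3: filterByExpr on the 4 groups (16270 genes kept, with 0.0906% of counts in the genes left out), TMM scaling, robust quasi-likelihood fits and Benjamini-Hochberg adjustment at 0.05 over all genes tested. Genotype and diet came from an additive model. The changes within 1 diet or 1 genotype and the interaction came from a model of the 4 group means. The SE is the fold change divided by the root of F. Exact permutation tests, two-sided, used mean log2 CPM with a prior count of 2. Fits were tested on simulated counts. The alternatives tried were scaling by median-of-ratios, no filter on low counts, a mean CPM of at least 1, DESeq2 1.42.0, limma 3.58.1 voom with quality weights, the deposited values with limma, only the groups compared, each library left out, and, for the exact permutation tests, a prior count of 0.5 and medians in place of means.

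Apart from the 10 regulators, genes were named by rule: in each list up to 3 with the smallest adjusted p by genotype and up to 3 with the smallest p by diet, and the 2 most correlated with each regulator among genes with a mean log2 CPM of at least 1. The regulators and all lists were chosen with earlier results of these data known. No regulator had under 161 counts in any library, and the part of counting noise in the spread of these genes was not tested.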

Additional observations from a re-analysis of the deposited data

Results flagged for a closer look

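Of the 40 sets made by the 10 regulators and the 4 groups, 1 held a library that stood apart from the rest of its group by Dixon's ratio, where chance alone gives about 2. It was Tfam in WT CD: library 5 read 47.1 CPM, and the other 3 libraries lay between 54.9 and 55.5 CPM. In the same library the summed cardiomyocyte markers were the lowest of the WT CD group (78875 CPM) and the fibroblast markers the highest (6764 CPM), and their part in the Tfam value was not tested.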

How the results depend on the processing

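Tfam and Esrra were called lower by genotype, and Tfam on ERTU, in every fit. The number of regulators called by genotype, 6 as reported, was 2 on the deposited variance-stabilized values and 3 to 6 with 1 library left out. On ERTU it was 2 as reported, 1 on the deposited values, 4 in voom with quality weights, and 1 to 3 with 1 library left out. Over all genes, calls by genotype numbered 3174 of 16270 as reported, 2199 of 55450 on the deposited values and 2781 of 16543 without WT CD library 1. Calls on CD numbered 1288 as reported, 663 on the deposited values and 770 without WT CD library 1. On ERTU they numbered 1298 as reported, 785 on the deposited values and 2755 in voom. The deposited values were tested over all 55450 genes. Small changes turned direction, and the cause was not tested. With 1 library left out, log2 fold changes by diet ran from -0.24 to 0.015 (Ppargc1b), -0.048 to 0.13 (Ppara) and -0.026 to 0.076 (Ppard, -0.015 in voom). For Gαq on CD, Nrf1 ran from -0.079 to 0.043, and on ERTU, Ppargc1b from -0.48 to 0.070. For ERTU in WT the ranges were -0.020 to 0.28 (Ppargc1a), -0.37 to 0.0079 (Ppargc1b), -0.021 to 0.14 (Esrrb) and -0.016 to 0.074 (Tfam). For ERTU in Gαq they were -0.32 to 0.19 (Ppargc1b, -0.047 on the deposited values and -0.15 in voom) and -0.31 to 0.10 (Ppara). In fits with 1 library left out, 24 single-gene values lost a call and 2 gained one, and in the other alternatives 5 lost and 4 gained. With medians in place of means, the unadjusted exact permutation p of 4 gene comparisons rose above 0.05 (Esrra on ERTU from 0.0159 to 0.0873) and that of 2 fell below it. No paired analysis was possible because the numbers of the columns run across all groups and none is shared between 2 groups.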

Other observations

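Pdk4, the kinase that shuts pyruvate dehydrogenase and a classic target of PPARα, was looked at beside Ppara after its values were seen. In WT CD, library 4 had 166 CPM of Pdk4 where libraries 1, 2 and 5 had 3976, 3504 and 3500 CPM, and the same library had the highest Ppara of its group (41.6 CPM). In Gαq CD, libraries 7, 8 and 9 had 150, 261 and 105 CPM of Pdk4, and libraries 6 and 10 had 1873 and 1818 CPM, while Ppara was 28.4, 24.2 and 32.8 CPM in the first set and 30.8 and 17.5 CPM in the second. The library with the lowest Ppara, Gαq ERTU 16 (13.7 CPM), had 2041 CPM of Pdk4. The other Gαq ERTU libraries, 17, 18 and 20, had 1308, 1508 and 2471 CPM of Pdk4 with 35.0, 27.2 and 23.7 CPM of Ppara. In WT ERTU, libraries 11 to 15 had 6869, 4200, 3194, 3093 and 1677 CPM of Pdk4 with 34.4, 38.6, 28.4, 32.3 and 48.4 CPM of Ppara, so that library 15 had the highest Ppara and the lowest Pdk4 of its group. No test was made of the relation between these genes.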
